A study of Mus musculus with 6 samples.

Results

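The cytokine and TNF receptor genes are those whose symbol begins with Il, digits and r, or with Tnfrsf, Ifnar, Ifngr, Csf1r, Csf2r, Csf3r, Tgfbr, Acvr or Bmpr, leaving out the secreted antagonist gene Il1rn. Of 8841 genes on the array 52 met this rule, each read by 1 of the 10076 probes. In the RefSeq gene table for assembly GRCm38.p6, 83 protein-coding symbols fit the rule, and the other members, Csf1r among them, were not analysed here. Messenger RNA was measured in macrophages of female C57BL/6 mice, 6 weeks of age, that were elicited with the sterile irritant thioglycollate. One array each was made for 6 groups. Cells without LPS had No treatment or TSA alone. The other 4 groups received LPS alone, TSA + LPS, GW3965 + LPS, or TSA + GW3965 + LPS. TSA is trichostatin A, which inhibits histone deacetylases. LPS is lipopolysaccharide, the bacterial product sensed by Toll-like receptor 4, and GW3965 activates the liver X receptors LXRalpha and LXRbeta, nuclear receptors for oxysterols. All groups share the strain, sex, age and elicitation, and GW3965 was given only together with LPS. The labels give neither doses nor times. Nor do they say whether the RNA samples are from different cultures or mice. The p-values therefore cover only the spread among these 6 arrays, which may be technical. With 1 array per group, that spread is how far a treatment difference varies between pairs of arrays. It mixes noise with any real dependence of the effect of 1 treatment on another.

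These receptors set which cytokines a macrophage can hear. TNF receptors recruit TRAF adaptors, and some carry a death domain. Others are decoys that bind a ligand without passing on its signal. Most interleukin, interferon and colony-stimulating factor receptors work as pairs of chains bound to JAK kinases, which phosphorylate STAT factors. Most TGF-beta, activin and BMP receptors are serine/threonine kinases, of which the type I receptors phosphorylate SMAD proteins.

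Of the 52 genes, 25 reached the median intensity of an array on at least 1 array and were tested. Treatment effects were estimated for LPS over 2 pairs of arrays, TSA over 3 pairs and GW3965 over 2 pairs, in one additive limma fit of log2 intensity over 5080 genes. A gene is said to have risen or fallen where its Benjamini-Hochberg adjusted p was under 0.05, two-sided, and SE is the standard error of that fit. By this test 2 receptor genes rose with LPS, Tnfrsf11a and Il15ra. With TSA 2 rose, Tnfrsf22 and Tnfrsf23, and 3 fell, Il10rb, Tnfrsf1a and Csf3r. The other 18 tested receptor genes passed for no treatment.

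Promoter windows, the 250 bases before a start site, are shown for 4 genes that rose or fell and had a window in the RefSeq table of GRCm38.p6. Tnfrsf11a and Il15ra stand for the response to LPS, and Tnfrsf23 and Tnfrsf1a for the opposite responses to TSA. Il15ra has 2 start sites. The Csf3r window held no match to the 4 motifs searched and is not printed. Tnfrsf22 and Il10rb are named only. Capitals mark a GC box (GGGCGG, the site type of Sp1) in Tnfrsf11a, the same motif on the other strand in Tnfrsf23, and a GAS motif (TTCNNNGAA, the site type of STAT dimers) in Tnfrsf1a.
Tnfrsf11a, chr1:105780473-105780722, + strand: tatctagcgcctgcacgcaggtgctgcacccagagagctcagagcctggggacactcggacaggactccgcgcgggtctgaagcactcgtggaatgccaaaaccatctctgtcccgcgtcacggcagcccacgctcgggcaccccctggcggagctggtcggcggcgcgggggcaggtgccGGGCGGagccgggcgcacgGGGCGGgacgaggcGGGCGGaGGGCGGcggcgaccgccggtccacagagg
Il15ra, chr2:11705043-11705292, + strand: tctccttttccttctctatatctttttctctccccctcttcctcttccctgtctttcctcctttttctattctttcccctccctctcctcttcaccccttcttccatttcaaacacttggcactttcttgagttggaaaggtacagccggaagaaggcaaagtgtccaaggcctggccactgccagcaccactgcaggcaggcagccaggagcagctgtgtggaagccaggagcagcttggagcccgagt
Il15ra, chr2:11705462-11705711, + strand: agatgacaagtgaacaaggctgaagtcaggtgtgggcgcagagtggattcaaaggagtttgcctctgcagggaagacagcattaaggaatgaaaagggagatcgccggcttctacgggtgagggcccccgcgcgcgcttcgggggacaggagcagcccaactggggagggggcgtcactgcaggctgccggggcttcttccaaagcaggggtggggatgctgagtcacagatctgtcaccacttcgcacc
Tnfrsf23, chr7:143685876-143686125, - strand: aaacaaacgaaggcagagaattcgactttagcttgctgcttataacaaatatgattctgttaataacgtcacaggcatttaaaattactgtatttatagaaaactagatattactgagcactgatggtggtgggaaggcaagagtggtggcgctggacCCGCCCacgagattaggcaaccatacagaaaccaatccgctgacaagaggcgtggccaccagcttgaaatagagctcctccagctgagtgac
Tnfrsf1a, chr6:125349473-125349722, + strand: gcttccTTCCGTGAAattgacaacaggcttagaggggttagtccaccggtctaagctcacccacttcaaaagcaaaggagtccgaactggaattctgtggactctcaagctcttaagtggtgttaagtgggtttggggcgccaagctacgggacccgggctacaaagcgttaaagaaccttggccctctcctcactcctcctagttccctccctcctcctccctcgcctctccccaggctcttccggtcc

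The Tnfrsf11a window held 31 CpG dinucleotides and 4 GC boxes. The Tnfrsf23 window held 8 CpG dinucleotides and 1 GC box, and the Tnfrsf1a window 9 CpG dinucleotides and 1 GAS motif. The 2 Il15ra windows held 2 and 12 CpG dinucleotides and no match to any of the 4 motifs searched. All motifs were searched on both strands, and a window was counted once per motif however many matches it held. A GC box stood in a window of 25 of the 40 members with one, 62.5%, and in 32.7% of 32817 mouse windows of this length. Member windows were also richer in G+C, with a median of 59.0% against 52.4% over all windows. Their median number of CpG dinucleotides was 11 against 6. Whether the GC box share goes beyond this base composition was not tested. GAS motifs were found for 7 members, 17.5%, against 7.01% of all windows. These 7 were Csf2rb2, Ifnar2, Il1r2, Il7r, Tnfrsf18, Tnfrsf1a and Tnfrsf1b. The interferon-stimulated response element (GAAA, any 2 bases, GAAA) was found for 2 members, Tnfrsf17 and Tnfrsf1b, or 5%, against 2.97% of all windows. The NF-kB motif (GGG, any 2 bases, TTTCC) was found for 1 member, Bmpr1b, or 2.5%, against 1.41%. A member with several windows has more chances of a match than 1 window. A match here is a stretch of letters and was not tested for binding.

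Deposited values were linear intensities with array medians of 0.981 to 0.987, so a value near 1 lies at the middle of its array. Values under each array's 25th percentile, 0.198 to 0.245, were set to that floor. All 10 macrophage markers on the array passed the level filter, and their summed level was 1487 to 2261 units per array. Most of this sum was Lyz1 (632 to 1097) and Lyz2 (729 to 1050). Cd14 read 21.6 to 351, Msr1 36.2 to 123, Cd36 17.2 to 33.2 and Mrc1 4.82 to 8.30. The others were low, Adgre1 at 0.730 to 2.84, Itgam at 1.74 to 3.97, Fcgr1 at 1.74 to 4.79 and Mertk at 1.53 to 2.02. The summed levels therefore do not measure the share of each cell type. T cell markers summed to 10.4 to 15.4 units. Of these 11 markers 3 passed the filter, Cd247 (6.30 to 11.2), Cd4 (1.17 to 2.16) and Cd3d (0.692 to 1.65), while Cd3e and Cd8a were under the floor on all 6 arrays. B cell markers summed to 9.59 to 11.9 units, eosinophil and mast cell markers to 19.5 to 27.1, and fibroblast and mesothelial markers to 9.67 to 16.4. The 3 NK cell markers on the array summed to 22.3 units with No treatment, 26.1 with TSA and 39.0 to 59.3 on the 4 arrays with LPS. Of these Klrk1 rose with LPS by 4.75 log2 units (SE 0.30, adjusted p = 4.58e-10), Gzma did not pass (0.32, SE 0.27, adjusted p = 0.48), and Prf1 was under the floor on all 6 arrays. The part of NK cells in the LPS results below, those of Tnfrsf11a and Il15ra included, was not tested. In these bulk samples, fewer cells of a type and less RNA per cell cannot be told apart.

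**Figure D1:**
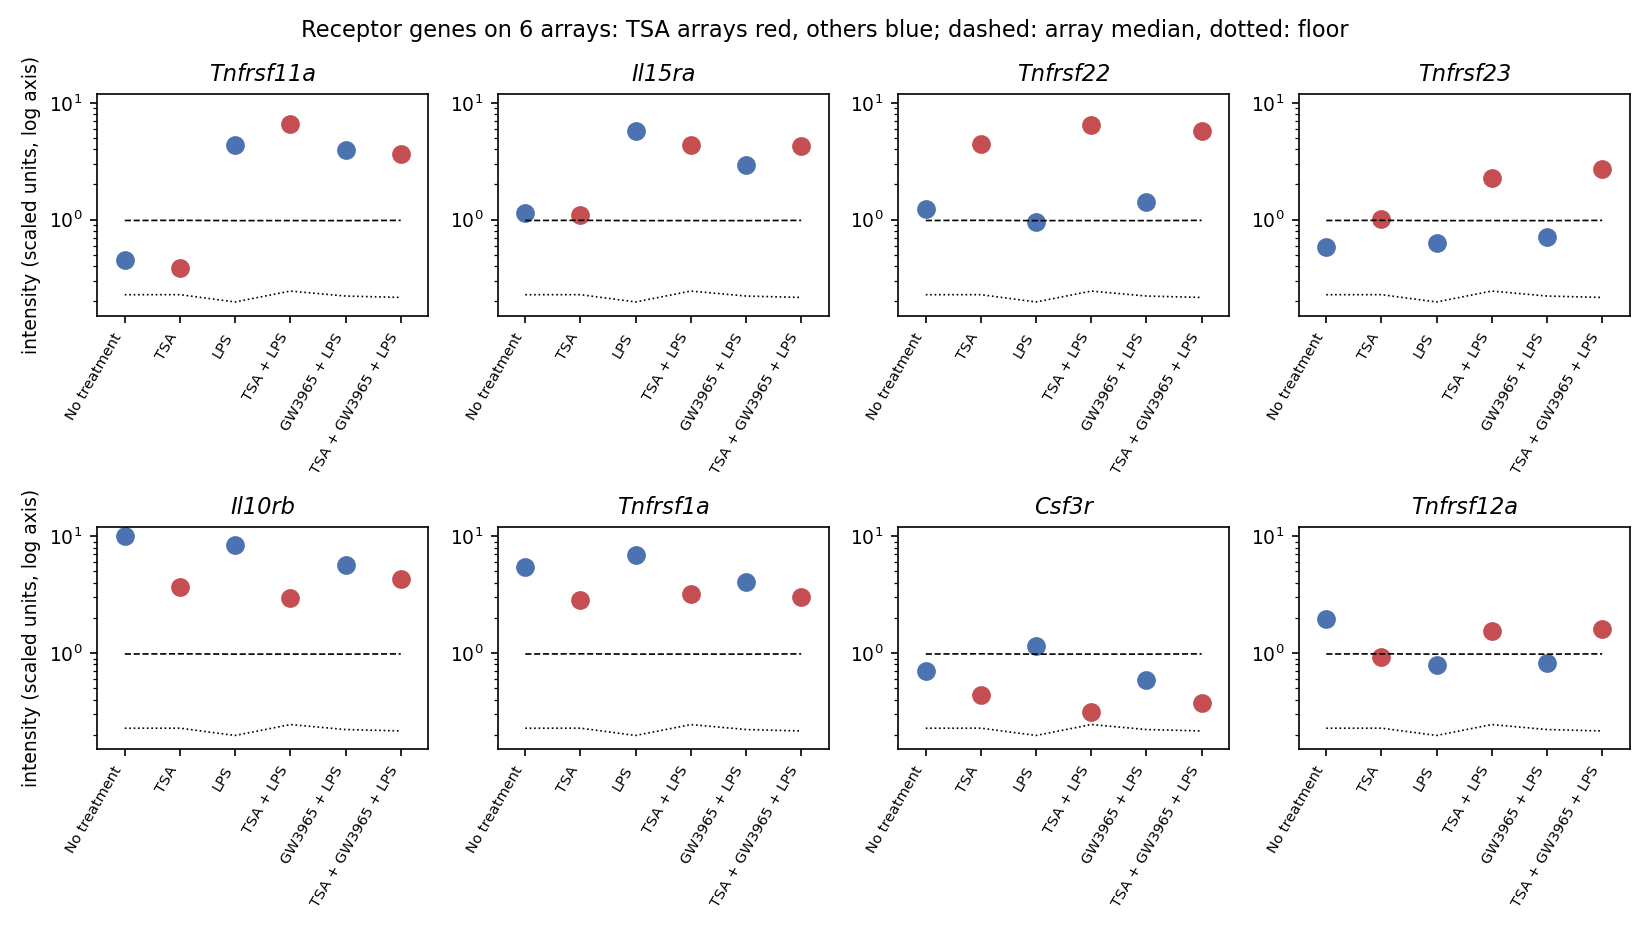
Scaled intensity (log axis) of 8 receptor genes on the 6 arrays, one point per array (red with TSA, blue without), with the array median dashed, the floor dotted, and no error bars because each group has 1 array. Tnfrsf11a and Il15ra stand higher on all 4 arrays with LPS, and Tnfrsf22 and Tnfrsf23 higher on all 3 arrays with TSA, while Il10rb, Tnfrsf1a and Csf3r stand lower on the 3 arrays with TSA and Tnfrsf12a is highest with No treatment.

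Among the TNF receptors, 16 genes were on the array and 9 were tested. Tnfrsf11a encodes RANK, the receptor through which RANKL drives osteoclast formation. Its intensity was 0.452 with No treatment, 0.388 with TSA, 4.34 with LPS, 6.63 with TSA + LPS, 3.95 with GW3965 + LPS and 3.62 with TSA + GW3965 + LPS. All 4 arrays with LPS lay above both arrays without it, and the groups did not overlap. The LPS array was 9.6-fold above No treatment, and TSA + LPS was 17.1-fold above TSA. The mean rise with LPS was 3.68 log2 units (SE 0.29, adjusted p = 9.66e-09, 2 of 2 pairs higher). Tnfrsf11a reached the array median only on arrays with LPS, so the level filter itself favours a rise with LPS. It also passed with no level filter. There its effect is the same and the prior also takes in genes held at the floor, so that pass is not a separate check. TSA changed it by 0.09 log2 units (SE 0.24, adjusted p = 0.835). Its ligand gene Tnfsf11 stayed short of the level filter at 0.177 to 0.586. Tnfrsf11b encodes osteoprotegerin, the secreted decoy for RANKL, and read 1.32 to 1.74. That 1.32-fold span was the smallest of the 25 tested receptor genes, while the 17.1-fold span of Tnfrsf11a was the largest.

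Over all 5080 genes, 12.3% rose with LPS and 7.11% fell. Among the tested receptor genes 2 of 25 rose, or 8%, and 0 fell. At an unadjusted p under 0.05 in limma, 4 were higher and 1 was lower. The median LPS effect was 0.06 log2 units for the receptor genes and 0.03 for all tested genes. The receptor genes did not rise with LPS in a larger share than the array as a whole. By size alone, at least 2-fold in every LPS pair, 2 of 22 measured receptor genes were higher, Tnfrsf11a and Il15ra, against 7.44% of 4530 genes, and 0 were lower, against 3.07%.

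Tnfrsf22 and Tnfrsf23 encode mouse decoy receptors for TRAIL, the death ligand made from Tnfsf10. Tnfrsf22 read 1.24 with No treatment, 4.45 with TSA, 0.953 with LPS, 6.46 with TSA + LPS, 1.43 with GW3965 + LPS and 5.78 with TSA + GW3965 + LPS. Each of the 3 arrays with TSA lay above every array without it. The differences were 3.6-fold without LPS, 6.79-fold with LPS and 4.04-fold with GW3965 + LPS. The mean rise with TSA was 2.21 log2 units (SE 0.23, adjusted p = 5.98e-06, 3 of 3 pairs higher). LPS changed Tnfrsf22 by 0.08 log2 units (SE 0.29, adjusted p = 0.90).

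Tnfrsf23 read 0.580 with No treatment, 1.01 with TSA, 0.633 with LPS, 2.28 with TSA + LPS, 0.707 with GW3965 + LPS and 2.69 with TSA + GW3965 + LPS. The 3 arrays with TSA were again the highest 3. They were also the only arrays on which it reached the array median, so the level filter itself favours a rise with TSA. Tnfrsf23 passed with no level filter as well, at the same effect, which is not a separate check. The rise was 1.52 log2 units (SE 0.27, adjusted p = 0.000954, 3 of 3 pairs higher). It was 1.74-fold without LPS, 3.6-fold with LPS and 3.8-fold with GW3965 + LPS. With the floor raised to each array's median, the rise was 0.90 log2 units (adjusted p = 0.0759) and no longer passed. The 2 genes are close relatives, and whether either probe also reads the other transcript was not tested.

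In the RefSeq gene order Tnfrsf22 and Tnfrsf23 are direct neighbours on chromosome 7, with 0 genes between them. This neighbourhood was looked at after the values were seen. Of the 20 genes within 10 places of Tnfrsf22, 13 were on the array and 8 were tested. With TSA 2 of the 8 rose, against 11% of all 5080 genes, with 7.54% falling. These were Tnfrsf23, already known to have risen, and the tetraspanin gene Cd81 (1.31 log2 units, SE 0.20, adjusted p = 0.000251). Cars, a cysteine tRNA ligase gene, fell by 1.15 log2 units (SE 0.33, adjusted p = 0.0212), and the other 5 did not pass. The imprinted cell cycle inhibitor gene Cdkn1c, for one, changed by -0.38 log2 units.

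Tnfrsf10b, the mouse TRAIL receptor with a death domain, read 0.641 with No treatment, 0.963 with TSA and 1.08 to 1.29 on the 4 arrays with LPS. The arrays with LPS did not overlap the others, and Tnfrsf10b reached the array median only on them. The level filter itself therefore favours this separation. Tnfrsf10b did not pass for LPS (0.59 log2 units, SE 0.32, adjusted p = 0.228). Its TSA effect of 0.28 log2 units did not pass either (SE 0.26, adjusted p = 0.493). The ligand gene Tnfsf10 rose with LPS by 2.04 log2 units (SE 0.28, adjusted p = 1.48e-05), and its TSA effect was 0.03 (SE 0.23, adjusted p = 0.938). So of the 3 TRAIL receptor genes, the decoy pair passed for TSA, and the ligand passed for LPS.

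Tnfrsf1a encodes TNFR1, the death domain receptor for TNF. It read 5.42 with No treatment, 2.86 with TSA, 6.96 with LPS, 3.24 with TSA + LPS, 4.09 with GW3965 + LPS and 3.02 with TSA + GW3965 + LPS. All 3 arrays with TSA lay below all 3 without it. Tnfrsf1a fell by 0.82 log2 units with TSA (SE 0.22, adjusted p = 0.0149, 3 of 3 pairs lower). The differences were 1.89-fold without LPS, 2.15-fold with LPS and 1.36-fold with GW3965 + LPS. Without the No treatment array or without the TSA array the change was -0.77 log2 units and did not pass (adjusted p = 0.0767 and 0.073). With the floor at the array median the effect was the same, -0.82, and did not pass either (adjusted p = 0.0759). Its LPS effect was 0.27 log2 units (SE 0.27, adjusted p = 0.575). Tnfrsf1b, which encodes the other TNF receptor, stayed short of the level filter, with 0.952 on the LPS array and 0.053 to 0.502 on the other 5.

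With TSA, 11% of the 5080 genes rose and 7.54% fell. Of the 25 receptor genes 2 rose, or 8%, and 3 fell, or 12%. The share that fell rests on 3 genes. The median TSA effect was 0.00 log2 units over the receptor genes and 0.01 over all tested genes. By size alone, at least 2-fold in each of the 3 TSA pairs, 1 of 21 measured receptor genes was higher, Tnfrsf22, against 1.98% of 4400 genes, and 0 were lower, against 0.227%.

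Non-overlap of the arrays was more common than passing the test. The 4 arrays with LPS lay wholly above the other 2 for 5 receptor genes, Tnfrsf11a, Il15ra, Tnfrsf10b, Ifnar1 and Acvr1, against 19.4% of all tested genes. They lay wholly below for 2, Il7r and Acvrl1, against 14%. The 3 arrays with TSA lay wholly above the rest for 2, Tnfrsf22 and Tnfrsf23, against 15.1%. They lay wholly below for 4, Il10rb, Tnfrsf1a, Csf3r and Csf2ra, against 10.3%. Tnfrsf11a and Tnfrsf10b reached the array median only on arrays with LPS, and Acvr1 only on LPS and GW3965 + LPS. Tnfrsf23 reached it only on arrays with TSA, and Csf3r only on the LPS array. For these genes the level filter itself favours the separation. The same filter underlies the shares of all tested genes.

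**Figure D2:**
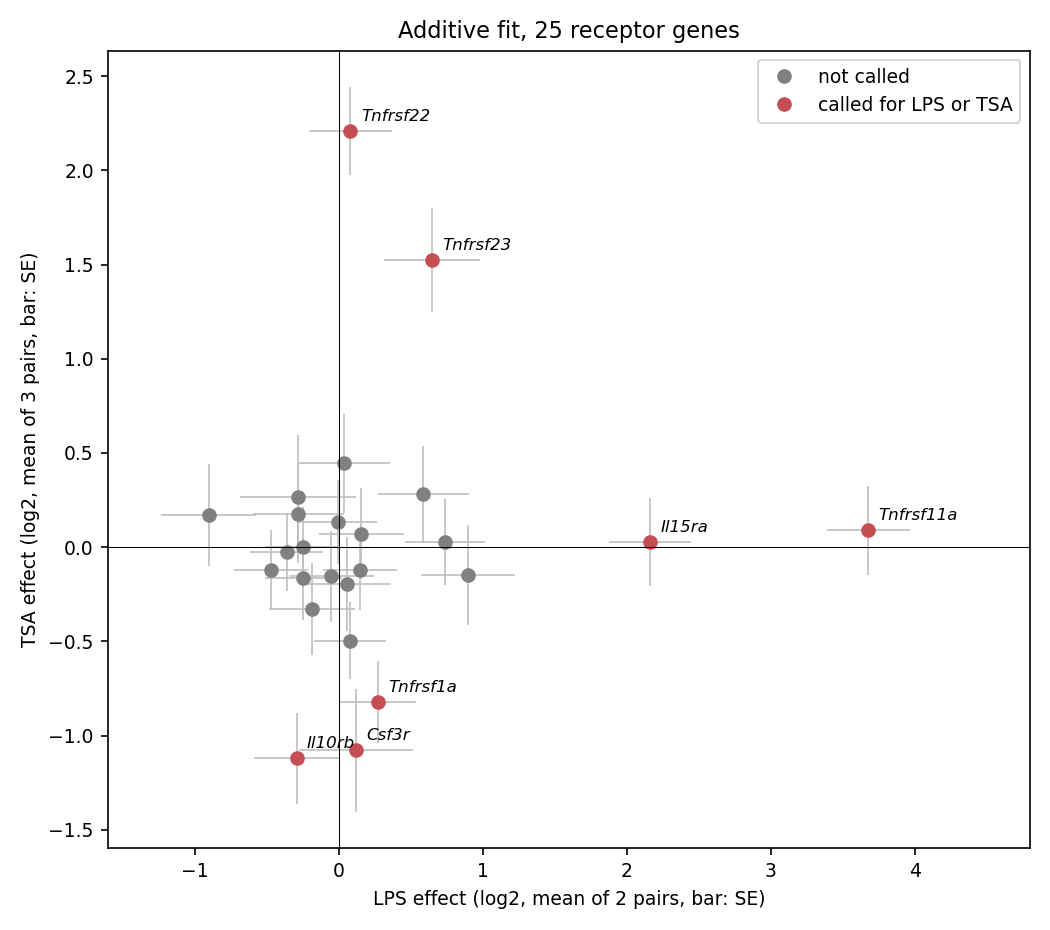
Effect of LPS (horizontal axis, log2 units) and of TSA (vertical axis, log2 units) on each of the 25 tested receptor genes, with bars of 1 SE from the additive limma fit and the genes that passed in red. Tnfrsf11a (3.68) and Il15ra (2.16) lie far to the right, Tnfrsf22 (2.21) and Tnfrsf23 (1.52) far up, and most of the others lie near the origin.

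Tnfrsf12a encodes Fn14, the receptor for TWEAK. It read 1.98 with No treatment, 0.919 with TSA, 0.797 with LPS, 1.54 with TSA + LPS, 0.827 with GW3965 + LPS and 1.61 with TSA + GW3965 + LPS. TSA alone and LPS alone each stood below No treatment, and the arrays with both lay between. LPS was 2.48-fold below No treatment, while TSA + LPS was 1.68-fold above TSA. TSA was 2.15-fold below No treatment, while it was 1.93-fold and 1.95-fold above in the 2 pairs with LPS. The LPS and TSA effects of the additive fit were -0.28 (SE 0.40, adjusted p = 0.715) and 0.27 log2 units (SE 0.33, adjusted p = 0.63). They average opposite differences. Fitted without the TSA array, the LPS effect was -1.31 log2 units. No treatment is then the only array without LPS, so the spread of this effect is not measured.

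In a second limma fit with an LPS-by-TSA term, the difference between the 2 LPS responses was 2.06 log2 units for Tnfrsf12a (SE 0.62, unadjusted p = 0.000955). It did not pass over all genes (adjusted p = 0.156). By that fit 0.0394% of the 5080 genes had a larger LPS response under TSA and 0.197% a smaller one, with 0 receptor genes in either direction. At an unadjusted p under 0.05 in limma, 1 receptor gene, Tnfrsf12a, had a larger response and 0 a smaller one. The median of this term was 0.14 log2 units over the receptor genes and -0.04 over all tested genes. The fit has 1 residual degree of freedom, and its prior degrees of freedom were infinite. Each SE of this fit therefore comes from the intensity trend over all genes, and not from the spread of the gene itself.

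Other differences between the LPS responses with and without TSA also stayed short of the test. Tnfrsf8 encodes CD30, and was 1.67-fold lower with LPS alone and 1.76-fold higher with LPS on top of TSA. The difference was 1.07 log2 units (SE 0.57, adjusted p = 0.9998). For Ifngr1 it was 1.15 (SE 0.60, adjusted p = 0.9998), and for Tnfrsf23 it was 1.08 (SE 0.63, adjusted p = 0.9998). Tnfrsf17, which encodes BCMA, a receptor best known from plasma cells, read 1.13 to 1.96, and its difference was 0.32 (SE 0.61).

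**Figure D3:**
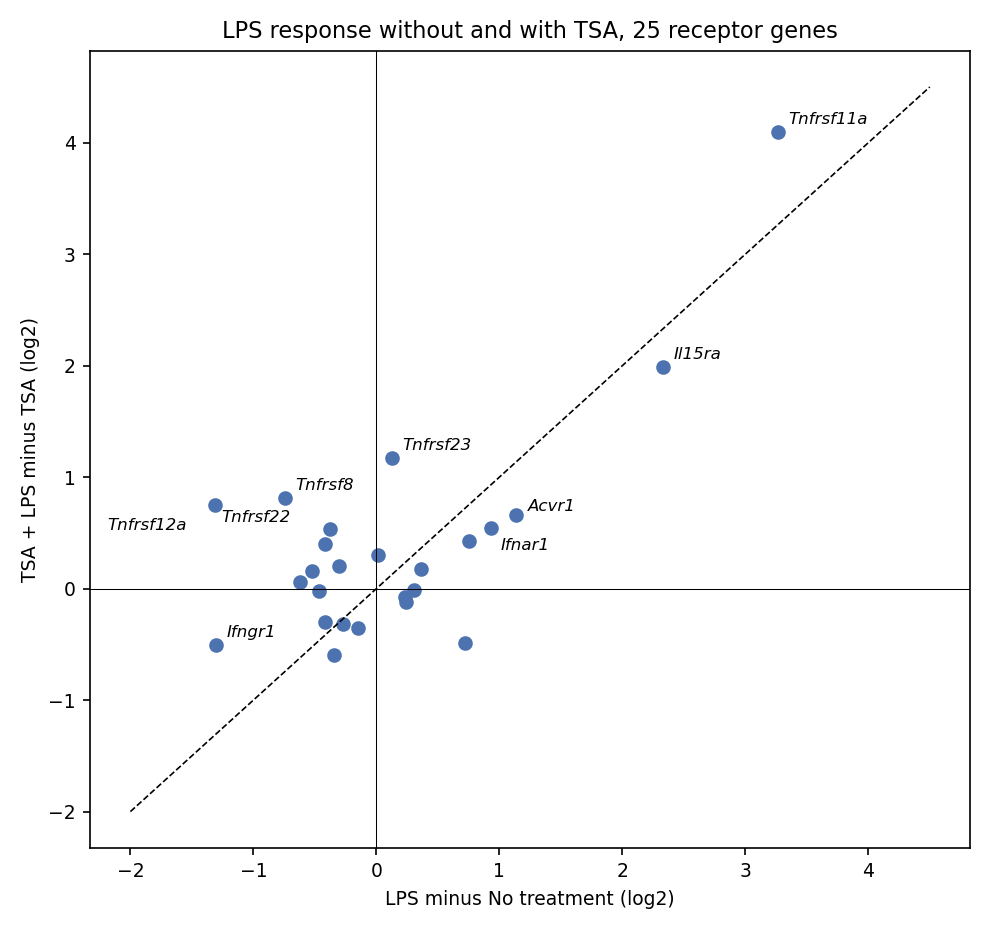
LPS response of the 25 tested receptor genes in log2 units, LPS minus No treatment (horizontal axis) against TSA + LPS minus TSA (vertical axis), one point per gene with no error because each difference is between 2 arrays. On the dashed line both responses are equal; Tnfrsf12a lies at -1.31 and 0.75, and Tnfrsf11a at 3.26 and 4.09.

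Interleukin receptors made up 18 of the 52 genes, of which 5 were tested. Il15ra encodes the alpha chain that captures IL-15 and presents it to neighbouring lymphocytes. It read 1.14 with No treatment, 1.09 with TSA, 5.74 with LPS, 4.34 with TSA + LPS, 2.94 with GW3965 + LPS and 4.28 with TSA + GW3965 + LPS. The 4 arrays with LPS were all above the 2 without it. LPS stood 5.04-fold above No treatment, and TSA + LPS 3.97-fold above TSA. Il15ra rose by 2.16 log2 units with LPS (SE 0.28, adjusted p = 1.06e-05, 2 of 2 pairs higher), and TSA changed it by 0.03 (SE 0.23, adjusted p = 0.954). Its ligand gene Il15 rose with LPS by 3.53 log2 units (SE 0.27, adjusted p = 5.79e-09). Il2rb, the beta chain that IL-15 shares with IL-2, read 3.98 to 5.95, with an LPS effect of -0.01 (SE 0.27, adjusted p = 0.991).

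Il10rb encodes the shared second chain of the receptors for IL-10, IL-22 and the lambda interferons. It read 10.1 with No treatment, 3.66 with TSA, 8.41 with LPS, 2.94 with TSA + LPS, 5.63 with GW3965 + LPS and 4.33 with TSA + GW3965 + LPS. All 3 arrays with TSA lay below the 3 without it, by 2.77-fold without LPS, 2.86-fold with LPS and 1.3-fold with GW3965 + LPS. Il10rb fell by 1.12 log2 units with TSA (SE 0.24, adjusted p = 0.00387, 3 of 3 pairs lower). With the floor at the array median the effect was the same, -1.12, and did not pass (adjusted p = 0.0553). The IL-10 specific chain gene Il10ra was short of the level filter at 0.110 to 0.305, and so was Il10 itself at 0.226 to 0.566.

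On chromosome 16 Il10rb lies between Ifnar2 and Ifnar1, with 0 genes between either pair. Ifnar1 did not pass for TSA (0.03 log2 units, SE 0.23, adjusted p = 0.953). Of the 20 genes within 10 places of Il10rb, 11 were on the array and 5 were tested. With TSA 1 of these 5 rose, Donson, a DNA replication gene (0.94 log2 units, SE 0.26, adjusted p = 0.0175), and 0 fell. Over all 5080 genes 11% rose and 7.54% fell with TSA. At that share, 0 of 5 falling does not set Il10rb apart from its neighbours.

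The other 3 tested interleukin receptor genes passed for no treatment. Il7r, whose product binds IL-7 and, with another chain, TSLP, read 41.3 with No treatment, 35.9 with TSA and 23.8 to 32.8 on the 4 arrays with LPS. Its LPS effect was -0.47 log2 units (SE 0.26, adjusted p = 0.239). Il3ra, the IL-3 binding chain, read 5.26 to 7.49, with a TSA effect of 0.00 log2 units (SE 0.22). Il2rb is given above.

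**Figure D4:**
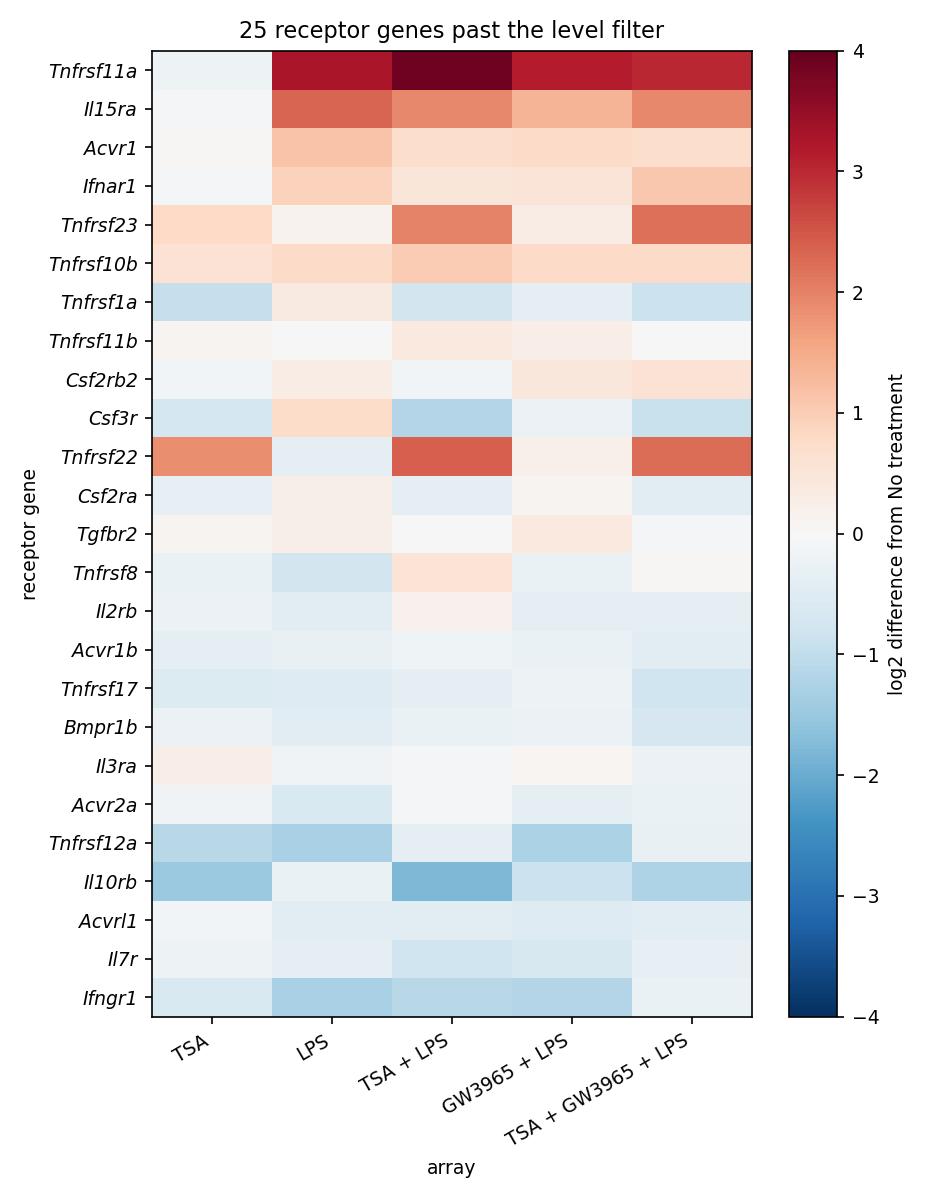
Log2 difference of each of the 25 tested receptor genes (rows) from the No treatment array on the other 5 arrays (columns), with the colour scale in log2 units. Tnfrsf11a and Il15ra stand out in the columns with LPS, and Tnfrsf22 and Tnfrsf23 in those with TSA.

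The interferon receptor genes on the array were Ifnar1, Ifnar2 and Ifngr1, and 2 were tested. Ifngr1 encodes the ligand-binding chain for interferon gamma. It read 2.56 with No treatment, 1.69 with TSA, 1.04 with LPS, 1.19 with TSA + LPS, 1.14 with GW3965 + LPS and 2.13 with TSA + GW3965 + LPS. The array with all 3 agents lay above TSA, so the groups with and without LPS overlapped. The LPS effect was -0.90 log2 units (SE 0.33) and did not pass (adjusted p = 0.0644, 2 of 2 pairs lower). The effect was -0.33 without the No treatment array and -1.48 without the TSA array, each resting on 1 array without LPS. It passed in the same direction without any 1 of the 4 arrays with LPS (adjusted p 0.033 to 0.0394). Of the 8 settings it passed in 1, that with no level filter (adjusted p = 0.0476). Ifnar1, a chain of the type I interferon receptor, read 7.15 with No treatment, 6.91 with TSA and 10.1 to 15.1 on the 4 arrays with LPS. The arrays did not overlap, and the effect of 0.74 log2 units (SE 0.28) did not pass (adjusted p = 0.0707). Ifnar1 passed without the TSA + LPS array (1.08, adjusted p = 0.00628). Of the 8 settings it passed in 1, that with no level filter (adjusted p = 0.0363), and the adjusted p ran up to 0.162. Its partner gene Ifnar2 was short of the level filter at 0.318 to 0.698.

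Of 4 colony-stimulating factor receptor genes 3 were tested. Csf3r encodes the receptor for G-CSF, best known from neutrophils. It read 0.702 with No treatment, 0.435 with TSA, 1.16 with LPS, 0.311 with TSA + LPS, 0.591 with GW3965 + LPS and 0.378 with TSA + GW3965 + LPS. Csf3r reached the array median on 1 array only, that with LPS, where it was highest, so the level filter itself favours a fall with TSA. All 3 arrays with TSA lay below the others, by 1.61-fold without LPS, 3.73-fold with LPS and 1.56-fold with GW3965 + LPS. Csf3r fell by 1.08 log2 units with TSA (SE 0.32, adjusted p = 0.0277, 3 of 3 pairs lower). Without the LPS array or without the TSA + LPS array the change was -0.67 and did not pass (adjusted p = 0.28 and 0.186). With the floor at the array median it was -0.08 (adjusted p = 0.683). With no level filter Csf3r passed at the same effect (-1.08, adjusted p = 0.00114), where the prior also takes in genes held at the floor. With a filter on at least 3 arrays it was not tested.

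Csf3r is itself 1 of 9 neutrophil markers on the array, of which 5 were tested and Mpo was under the floor on all 6 arrays. The summed level of the 9 was 25.03 with No treatment, 38.9 with TSA, 52.9 with LPS, 83.6 with TSA + LPS, 53.3 with GW3965 + LPS and 75.0 with TSA + GW3965 + LPS. This sum was higher on the array with TSA in each of the 3 pairs, while Csf3r was lower. Most of it was S100a8, at 22.0 to 78.8, which rose with TSA by 0.60 log2 units (SE 0.20, adjusted p = 0.04). Prtn3 also rose (3.12, SE 0.34, adjusted p = 5.98e-06). Prtn3 was under the floor on the 3 arrays without TSA and reached the array median only on those with it. The level filter itself thus favours its rise, and the size is approximate. Camp, like Csf3r, was lower with TSA in the 2 pairs with LPS, and was under the floor on both arrays without LPS. Its effect of -0.67 (SE 0.29) did not pass (adjusted p = 0.119). Ltf differed by 0.01 (SE 0.32, adjusted p = 0.992). The part of neutrophils in the Csf3r result was not tested.

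Csf2ra encodes the alpha chain for GM-CSF, and read 24.5, 28.8 and 26.6 on the arrays without TSA and 18.4 to 19.6 on those with it. The groups did not overlap, and the TSA effect of -0.50 log2 units (SE 0.20) did not pass (adjusted p = 0.095). Of the 8 settings it passed in 1, after cyclic loess (-0.60, adjusted p = 0.0427), and the adjusted p ran up to 0.127. Csf2rb2, a mouse beta chain used by IL-3, read 9.87 to 16.0 and passed for no treatment. Its close relative and direct neighbour Csf2rb, the common beta chain, was short of the level filter at 0.475 to 0.865. The 2 genes are alike enough that their probes may not separate them fully, which was not tested.

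Of the TGF-beta, activin and BMP receptors, 11 were on the array, 6 were tested, and 0 of the 6 passed for LPS, TSA or GW3965. Over all tested genes 12.3% rose and 7.11% fell with LPS, and 11% rose and 7.54% fell with TSA. At these shares, 0 of 6 does not set the family apart. Acvr1, the type I receptor ALK2, read 0.585 with No treatment, 0.602 with TSA, 1.28 with LPS and 0.947 to 0.986 on the other 3 arrays with LPS. The LPS effect was 0.90 log2 units (SE 0.33, adjusted p = 0.0607). It passed without the TSA + LPS array (1.11, adjusted p = 0.0319). Of the 7 settings run it passed in 1, a prior without an intensity trend (adjusted p = 0.0281). Over these settings the effect ran from 0.19 to 0.93 and the adjusted p up to 0.475. Acvr1 reached the array median only on LPS and GW3965 + LPS, so with a filter on at least 3 arrays it was not tested. Acvrl1, the endothelial type I receptor ALK1, read 9.52 and 8.75 without LPS and 6.69 to 7.11 with it. Its effect of -0.36 log2 units did not pass (SE 0.25, adjusted p = 0.386). The activin receptor genes Acvr1b and Acvr2a read 1.16 to 1.61 and 0.781 to 1.20. Bmpr1b, a BMP type I receptor, read 2.56 to 4.12, and Tgfbr2, the ligand-binding TGF-beta receptor, read 1.01 to 1.37. Over the 6 genes the TSA effects spanned -0.20 to 0.18 log2 units.

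GW3965 changed none of the 25 tested receptor genes by the test, against 0.0591% of all 5080 genes higher and 0.0197% lower. At an unadjusted p under 0.05 in limma the receptor counts were also 0 higher and 0 lower, and by size alone 0 of 20 measured receptor genes were 2-fold higher in both pairs, against 0.136% of 4425 genes, and 0 were lower, against 0.0678%. The effects ran from -0.50 to 0.48 log2 units, with SE of 0.25 to 0.40. The most negative were Tnfrsf11a (-0.50, SE 0.29) and Il15ra (-0.49, SE 0.28), the 2 genes that rose with LPS. The LPS and TSA + LPS arrays serve both effects, as the treated side for LPS and as the reference for GW3965. A high reading on them moves the 2 effects in opposite directions. For Il15ra GW3965 + LPS stood 1.95-fold below LPS, but the pair with TSA differed by 1.01-fold. For Tnfrsf11a the pair without TSA differed by 1.1-fold and the pair with TSA by 1.83-fold, both lower. Each gene differed mainly in 1 of its 2 pairs, and not in the same one.

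The span over the 6 arrays was under 1.5-fold for 6 of the 25 tested receptor genes, 1.5 to 2-fold for 6, 2 to 4-fold for 9 and 4-fold or more for 4. Those 4 were Tnfrsf11a, Tnfrsf22, Il15ra and Tnfrsf23. The median span was 2.01-fold, against 1.99-fold over all tested genes, and 4-fold or more was reached by 16% of the receptor genes and 12.2% of all tested genes. The tested receptor genes thus varied about as much as the array as a whole.

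Of the 27 receptor genes short of the level filter, 6 were under the floor on all 6 arrays: Bmpr1a, Il12rb1, Il13ra2, Il17rb, Il6ra and Tgfbr3. Another 14 were under it on 1 to 5 arrays: Bmpr2, Il10ra, Il17ra, Il18rap, Il1rap, Il1rapl2, Il21r, Il27ra, Tgfbr1, Tnfrsf13b, Tnfrsf13c, Tnfrsf19, Tnfrsf1b and Tnfrsf21. The remaining 7, Acvr2b, Csf2rb, Ifnar2, Il1r1, Il1r2, Tnfrsf18 and Tnfrsf4, stayed between floor and median. Such readings give no order between arrays near the floor. The highest, 0.968, was that of Il1rap, the accessory chain of the IL-1 receptor, on the array with all 3 agents. Il1rap read 0.156, under the floor, with No treatment, 0.359 with TSA and 0.584 to 0.968 with LPS. The signalling receptor gene Il1r1 read 0.404 to 0.575 and the decoy gene Il1r2 0.25 to 0.515.

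Ligand and signalling genes were read from lists of pathway members. The counts below stand against the shares of all 5080 genes, 12.3% rising and 7.11% falling with LPS, and 11% rising and 7.54% falling with TSA. Of 51 ligand genes on the array 30 were tested, and with LPS 18 rose and 1 fell, with a median effect of 1.65 log2 units against 0.03 over all tested genes. The rises included Il1b (10.80) and Il6 (7.83), and the gene that fell was Il16, a T cell chemoattractant (-2.12, SE 0.41, adjusted p = 0.000753). With TSA 2 of the 30 rose, Tnfsf13b, which encodes BAFF (1.17, SE 0.27, adjusted p = 0.00621), and Il15 (0.65, SE 0.22, adjusted p = 0.046). Another 6 fell with TSA, among them Tnf (-1.24, SE 0.23, adjusted p = 0.00114), and the median was -0.10. Tnf and its receptor gene Tnfrsf1a were both among the genes that fell with TSA.

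Of 19 receptor and related genes outside the symbol rule 10 were tested. With LPS 4 rose: Cd40, the costimulatory TNF receptor family member (5.79 log2 units, SE 0.33), the death receptor gene Fas (2.73, SE 0.28), Ebi3, a soluble cytokine subunit gene that is also in the ligand list (1.40, SE 0.26), and Crlf3 (1.31, SE 0.26). With LPS 2 fell, Sigirr, a damper of IL-1 receptor signalling (-2.08, SE 0.30), and Il6st, the gp130 chain (-0.94, SE 0.31). The largest adjusted p of these 6 was that of Il6st, 0.0365. With TSA 2 rose, Fas (1.46, SE 0.23, adjusted p = 0.00028) and Sigirr (0.92, SE 0.24, adjusted p = 0.0131), and 0 fell. Fas therefore rose with both agents, while Sigirr moved in opposite directions.

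Of 22 tested JAK-STAT genes 10 rose and 1 fell with LPS, where 12.3% and 7.11% of all tested genes did so. The feedback inhibitors Socs1 and Socs3 rose by 3.73 (SE 0.28) and 3.70 (SE 0.29) log2 units and the kinase gene Jak2 by 2.94 (SE 0.29), while Socs6 fell by 1.81 (SE 0.28). With TSA 1 of the 22, Stat4, rose by 1.99 log2 units (SE 0.26, adjusted p = 5.17e-05) and 4 fell, against 11% and 7.54% of all tested genes. These were the phosphatase genes Ptpn1 (-1.47, SE 0.22) and Ptpn6 (-1.03, SE 0.27), Stat6 (-0.85, SE 0.22) and Socs1 (-0.79, SE 0.23). The medians were 0.77 for LPS and -0.20 for TSA.

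Of 19 tested TNF receptor adaptor genes 10 rose and 1, Cradd, fell with LPS, against 12.3% and 7.11% of all tested genes. Traf1 rose by 4.82 log2 units (SE 0.25), Cflar, an inhibitor of caspase-8 activation, by 4.13 (SE 0.26), and Daxx by 3.41 (SE 0.28). Against 11% rising and 7.54% falling with TSA over all tested genes, Siva1 rose by 0.89 (SE 0.22), and 3 of the 19 fell, Traf2 (-1.23, SE 0.31), Ikbkg (-0.90, SE 0.28) and Tnip1 (-0.89, SE 0.22). Of 7 tested IL-1 receptor adaptor genes 4 rose with LPS, Peli1, Irak1bp1, Myd88 and Tab2, by 1.04 to 2.57 log2 units. Irak1 (-1.02, SE 0.21) and Myd88 (-0.96, SE 0.26) fell with TSA. Tab2 stands in both adaptor lists. Of 6 tested SMAD pathway genes 0 passed for LPS, TSA or GW3965 in limma. GW3965 called 0 genes of any of the 6 lists.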

How the data were processed

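The deposited table holds linear intensities of 6 biotin-labelled single-colour arrays. Per the labels, total RNA was purified on spin columns, primed with oligo-dT and amplified by in vitro transcription. Array medians agree closely, so the values appear to have been scaled between arrays. By whom and how is not given in the sources used here. On each array 19 to 28 values lie at or below 0. Of the probes 8983 carry 1 symbol, 1 several and 1092 none, from the platform annotation, and probes without a single symbol were left out. All 52 members were found by gene ID in the RefSeq table, with 0 symbols changed.

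A gene was read from its probe with the highest mean. Each array was floored at its 25th percentile, log2-transformed and tested where at or above the array median on at least 1 array. The additive fit (limma 3.58.1, R 4.3.3, intensity trend) had 2 residual and 16.9 prior degrees of freedom and was tested on simulated data. Effects of genes with floored values are approximate. Members, lists and tests were chosen with earlier results of these data known. Named genes are all members that passed, other tested members with their values, and at most 4 called genes a list and treatment; further list genes and neighbours were chosen after their values were seen. Alternatives covered scaling, floor, filter, probe averaging, prior, call rule and each array left out. The number of arrays limits the precision. Figures used matplotlib 3.10.9 in Python 3.11.15.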

Additional observations from a re-analysis of the deposited data

How the results depend on the processing

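The rises of Tnfrsf11a and Il15ra with LPS and of Tnfrsf22 with TSA passed under all 8 alternative settings. These varied scaling, floor, filter, probe averaging and prior. The rise of Tnfrsf22 also passed with any 1 of the 6 arrays left out, and the rises with LPS without any 1 of the 4 arrays with LPS. Without No treatment or without TSA, the LPS effect rests on 1 array lacking LPS, and its spread is not measured. The counts of recomputed values include such fits. The effect on Tnfrsf11a ran from 2.44 to 3.69 log2 units over the settings. Over the 7 effects that passed, 89 of 97 recomputed values kept their direction and passed, 8 kept the direction only, and 0 reversed. Many of these values could not reverse. Each tested receptor gene has 1 probe and lay above the floor on every array. A lower floor, another level filter, probe averaging or another prior therefore left its effect unchanged and could alter only the adjusted p. Leaving out either array with GW3965 likewise left the LPS effects unchanged. Of 1145 recomputed values of the 93 effects that did not pass, 12 passed. With no level filter, 5 receptor genes were higher with LPS (Ifnar1, Il1rap and Tnfrsf1b in addition) and 1 lower (Ifngr1). Il1rap and Tnfrsf1b were each under the floor on 1 array. That fit also takes in genes held at the floor on all 6 arrays, whose differences come from the floors alone. These enter its prior and its adjustment, so a pass there is not a separate check. Flooring at the array median left 1 gene higher and 0 lower with TSA. The effects of Il10rb and Tnfrsf1a, above the median on all arrays, stayed at -1.12 and -0.82 there, with adjusted p of 0.0553 and 0.0759. Those of Tnfrsf23 and Csf3r shrank to 0.90 and -0.08. A level filter on at least 3 arrays left 2 lower with TSA, since Csf3r was not tested. By the rule of at least 2-fold in every pair, 1 was higher and 0 lower with TSA. Leaving out 1 of the 4 arrays with LPS gave 2 to 4 receptor genes higher and 1 lower with LPS. Leaving out any 1 array gave 2 higher and 2 to 3 lower with TSA. Quantile normalization moved the median LPS effect of all tested genes from 0.03 to -0.11. GW3965 and the LPS-by-TSA term called 0 receptor genes under every setting run. The LPS-by-TSA term could not be fitted with an array left out. No paired analysis was possible because each group has 1 array, so a replicate number pairs nothing beyond the treatment pairs themselves. Readings near the floor limit what can be seen for the 27 receptor genes not tested.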
